A study of Arabidopsis thaliana with 14 samples.

Results

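CP29 is a minor, monomeric chlorophyll-binding protein of the photosystem II antenna, and in Arabidopsis thaliana it is encoded by the genes LHCB4.1 (AT5G01530), LHCB4.2 (AT3G08940) and LHCB4.3 (AT2G40100). The members are the probe sets annotated to these genes, a rule that uses no measured value although the family was picked with earlier results of these data known. It gave 3 probe sets of 22810 on the array, or 3 of 13350 genes with a probe set named for 1 gene. All 3 passed the filter on low signal. Their signal was followed over 14 arrays in 7 groups of 2, and the pattern of LHCB4.3 was set against those of its paralogs.

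All groups were whole Arabidopsis seedlings. Wild-type Col seedlings 7 days old had been grown in darkness, in darkness with brassinolide (BL, a highly active brassinosteroid), in darkness and then in light for 2 h, or in darkness with BL before the same 2 h in light. The mutant det2, which lacks a steroid reductase of brassinosteroid synthesis, was grown for 7 days in darkness or for 7 days in light. A further det2 group, 14 days old, had been raised in light and was then kept in darkness for 8 h. The titles call the hormone BL in the group kept in darkness and BR in the group moved to light. Both names were read as BL. The sources used here state neither the hormone's dose nor how long it was given, nor how strong the light was. No wild-type seedlings grown in light and no det2 seedlings moved from darkness to light were analysed here. The labels do not tell whether the 2 replicates of a group were grown separately, and p-values therefore reflect only array-to-array spread, part or all of which may be technical. DET2 had no named probe set, so the mutated gene could not serve as a check of the labels.

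CP29 sits between the photosystem II core and the outer trimeric antenna, passes excitation energy to the core and takes part in the control of excess energy. The genes of the light-harvesting family are kept low in etiolated seedlings and are switched on by light, in step with chlorophyll synthesis. LHCB4.1 and LHCB4.2 are the broadly expressed forms in leaves, whereas LHCB4.3 encodes a form with a shortened C-terminus and is known as a gene induced by strong light. Brassinosteroids promote the etiolated habit, and det2 seedlings show features of light-grown plants in darkness.

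The median signal of an array was 187.8 to 218.6, and replicates correlated at r = 0.963 or above. The brightest probe set read 18321 to 21956 on wild-type arrays and 25300 to 47533 on det2 arrays, although all arrays had been scaled to the same trimmed mean. The labels give no processing batch, so array handling and genotype cannot be told apart. Of the root markers only EXPA7 and EXPA18, 2 of 11, had a named probe set, and neither was at 0 on any array. Their summed signal was 377.9 to 794.6 in dark-grown wild type, 86.4 to 343.4 with BL in the dark, 370.9 to 494.7 after light and 92.3 to 228.5 after light with BL. In det2 it was 142.4 to 192.7 in the dark, 633.1 to 668.8 in light and 482 to 594.9 after the move to the dark. The part of tissue proportions in the results below was not tested, and in whole seedlings fewer cells of a type and less RNA per cell cannot be told apart.

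The signal is the MAS5 value of a probe set, a linear intensity in arbitrary units, and levels are compared only within a probe set. LHCB4.3 read 331.9 and 310.9 in dark-grown wild type and 1107.3 and 1168.2 after 2 h of light. BL-treated seedlings gave 279.5 and 242.4 before the move and 1325.6 and 1616.9 after it. All 4 arrays of wild type moved to light therefore stood above all other arrays of the series. In det2 it read 792.8 and 604.1 in the dark, 474.8 and 529.2 in light, and 281.5 and 322 after 8 h of darkness.

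LHCB4.2 read 4014.7 and 3187 in dark-grown wild type and 9331.5 and 9141.1 after light. BL-treated seedlings gave 3466.8 and 3506.1 before the move and 9656 and 10709.4 after light. In det2 it read 9035.6 and 8322.5 in the dark, 15227.8 and 15100.8 in light and 9959.6 and 9747.3 after the move to the dark. Its highest arrays were those of light-grown det2, and dark-grown det2 stood just below wild type moved to light.

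LHCB4.1 read 6942.1 and 4975.9 in dark-grown wild type and 10180.7 and 8769.5 after light. Its BL-treated arrays gave 5460.7 and 4731 before the move and 10838.7 and 9162.8 after light. In det2 its values were 12640.5 and 11516.2 in the dark, 18054.2 and 18536.1 in light and 14415.8 and 14106 after the move to the dark. Every det2 array was above every wild-type array for this gene.

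**Figure D1:**
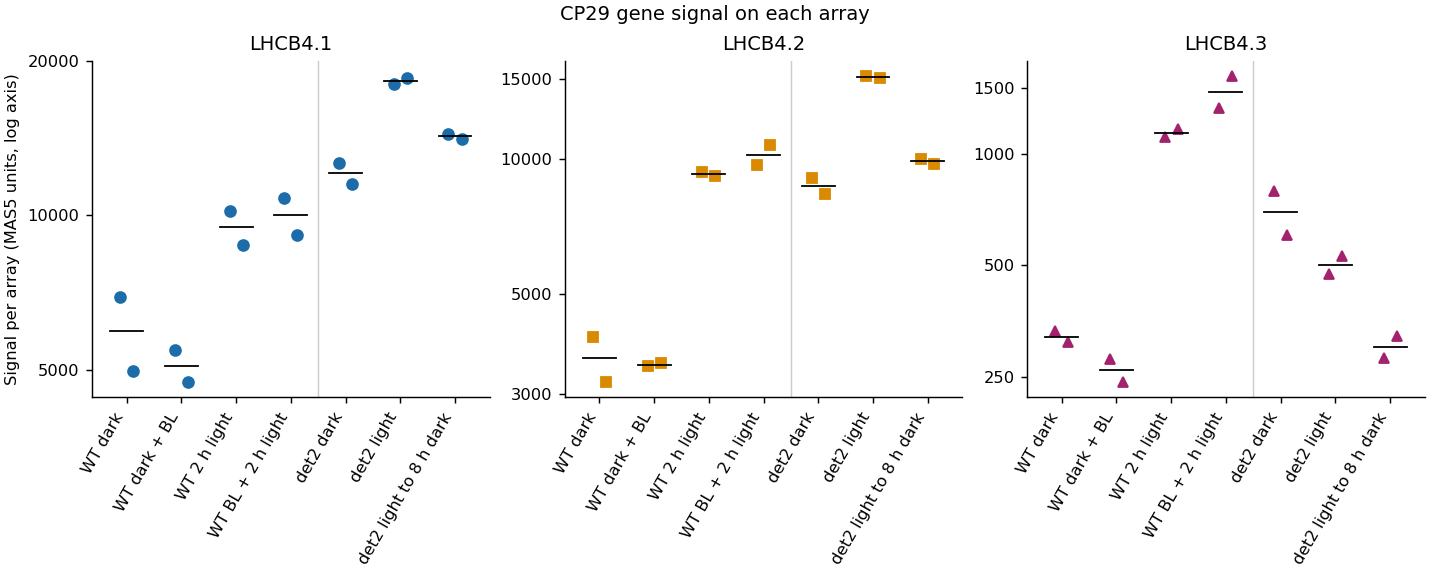
Signal of LHCB4.1, LHCB4.2 and LHCB4.3 on each of the 14 arrays (points, MAS5 units, log axis, a separate scale for each gene) with the group mean (line). LHCB4.1 and LHCB4.2 are highest in light-grown det2, whereas LHCB4.3 is highest in wild type moved to light, at 1107.3 to 1616.9.

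Ordered by group mean, LHCB4.3 rose from 261 ± 26.2 units (SD, n = 2) in BL-treated dark wild type through det2 moved to the dark, dark-grown wild type, light-grown det2, dark-grown det2 and wild type in light to 1471 ± 206 in BL-treated wild type in light, a 5.64-fold span. Among neighbours in that order only det2 moved to the dark (301.8 ± 28.6) and dark-grown wild type (321.4 ± 14.8) overlapped. For LHCB4.2 the span was 4.35-fold, from 3486 ± 27.8 in BL-treated dark wild type to 15160 ± 89.8 in light-grown det2. The arrays of the 2 dark wild-type groups overlapped for it, as did those of det2 moved to the dark (9853 ± 150) and BL-treated wild type in light (10180 ± 745). LHCB4.1 spanned 3.59-fold, from 5096 ± 516 to 18300 ± 341, between the same 2 groups as LHCB4.2. In LHCB4.1 the arrays with and without BL overlapped both in the dark and in light.

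Over the 14 arrays the log2 signals of LHCB4.1 and LHCB4.2 correlated at r = 0.934. LHCB4.3 correlated with LHCB4.2 at r = 0.537 and with LHCB4.1 at r = 0.27. Over the 8 wild-type arrays alone these values were 0.99 and 0.931, and over the 6 det2 arrays -0.07 and -0.23. These are descriptions of arrays that share groups and scaling, not tests.

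The move to light asked how etiolated seedlings begin photomorphogenesis. LHCB4.3 rose 3.42-fold within 2 h, by 1.77 ± 0.18 on the log2 scale (SE, adjusted p = 1.5e-05), and held place 422 of 17787 probe sets ordered from the highest change. LHCB4.2 rose 2.57-fold (1.36 ± 0.13, adjusted p = 7.22e-06) and LHCB4.1 rose 1.61-fold (0.68 ± 0.16, adjusted p = 0.00799). For all 3 genes both light arrays were above both dark arrays. With 2 arrays against 2 such separation is a weak sign, and its share over all probe sets is not given here. By adjusted p 10.1% of all probe sets passed as higher in this comparison. The median change over all probe sets was -0.12. The LHCB4.1 call was lost when dark replicate 2 was left out (0.44, adjusted p = 0.0783) and when light replicate 1 was left out (0.58, adjusted p = 0.0558). With wild-type arrays alone its adjusted p was 0.0515. Light and the handling of the move cannot be told apart, since no dark-to-dark control was analysed here.

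In BL-treated seedlings the same move raised LHCB4.3 by 2.42 ± 0.18, a 5.36-fold change (adjusted p = 1.04e-06) that held place 156 of 17787. LHCB4.2 rose 2.91-fold (1.54 ± 0.13, adjusted p = 2.59e-06) and LHCB4.1 rose 1.96-fold (0.97 ± 0.16, adjusted p = 0.000856), again with no overlap between the groups. By adjusted p 8.97% of all probe sets passed as higher, and the share without overlap is not given here. The order of the changes, LHCB4.3 above LHCB4.2 above LHCB4.1, was the same with and without BL.

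The sizes of these rises were compared within arrays, because a change in the log2 difference between paralogs on the same array means that they changed by unequal amounts. Taking light against dark over all wild-type arrays, 4 against 4, LHCB4.3 rose by 1.27 more than LHCB4.1, by 0.65 more than LHCB4.2, and LHCB4.1 by 0.63 less than LHCB4.2 (difference -0.63). In an exact two-sided permutation test that treats the arrays as unpaired each of these 3 differences had p = 0.0286, the smallest that 4 arrays against 4 can give, and p = 0.0286 after Benjamini-Hochberg adjustment over the 3 pairs. With every p at this floor the adjustment could change nothing. The 3 differences are not separate results, since each follows from the others. The within-array difference between LHCB4.3 and LHCB4.2, set to 0 at the mean of dark-grown wild type, was -0.12 and 0.12 in those arrays and 0.36 and 0.46 after light. With BL it was -0.15 and -0.36 in the dark and 0.56 and 0.70 after light. Light and dark arrays did not overlap, which is the same fact as the exact p at its floor. The share of all probe sets that separate from LHCB4.2 in this way is not given here. Under quantile normalization the LHCB4.3 excess over LHCB4.2 was 0.54 and its exact p 0.0571.

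A second test fitted the difference of every probe set from a reference paralog with limma. Because all these differences share the reference, most pass whenever the reference itself moves. With LHCB4.2 as reference 91.2% of probe sets passed for light without BL and 92.4% for light with BL, and with LHCB4.1 as reference 62.2% and 75.1%. A pass in this test is therefore common, and with LHCB4.2 as reference the adjusted p of LHCB4.3 was close to the unadjusted one (0.0492 against 0.0449 for light without BL). LHCB4.3 exceeded LHCB4.1 by 1.09 ± 0.22 without BL (adjusted p = 0.00174) and by 1.45 ± 0.22 with BL (adjusted p = 0.000146). It exceeded LHCB4.2 by 0.88 ± 0.19 with BL (adjusted p = 0.000455). Without BL the excess over LHCB4.2 was 0.41 ± 0.19 (adjusted p = 0.0492, 95% interval 0.01 to 0.81), and it was lost under several settings, among them quantile normalization (0.25, adjusted p = 0.3) and each of 3 left-out arrays, down to 0.29 when dark replicate 1 was left out (adjusted p = 0.207). The difference of LHCB4.1 from LHCB4.2 was -0.68 ± 0.16 without BL (adjusted p = 0.00139) and -0.57 ± 0.16 with BL (adjusted p = 0.00449), the latter lost when BL-treated light replicate 2 was left out (-0.38, adjusted p = 0.0785).

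LHCB4.1, with the smallest rise, was also a bright probe set. It stood at 21.5% to 37.4% of the brightest probe set's signal in dark wild type and at 42.2% to 51.5% after light, while LHCB4.2 stood at 15.5% to 21.7% and then 42.6% to 49.9%. LHCB4.3 stayed at 7.45% or below on all arrays. The part of signal range in the unequal rises was not tested.

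**Figure D2:**
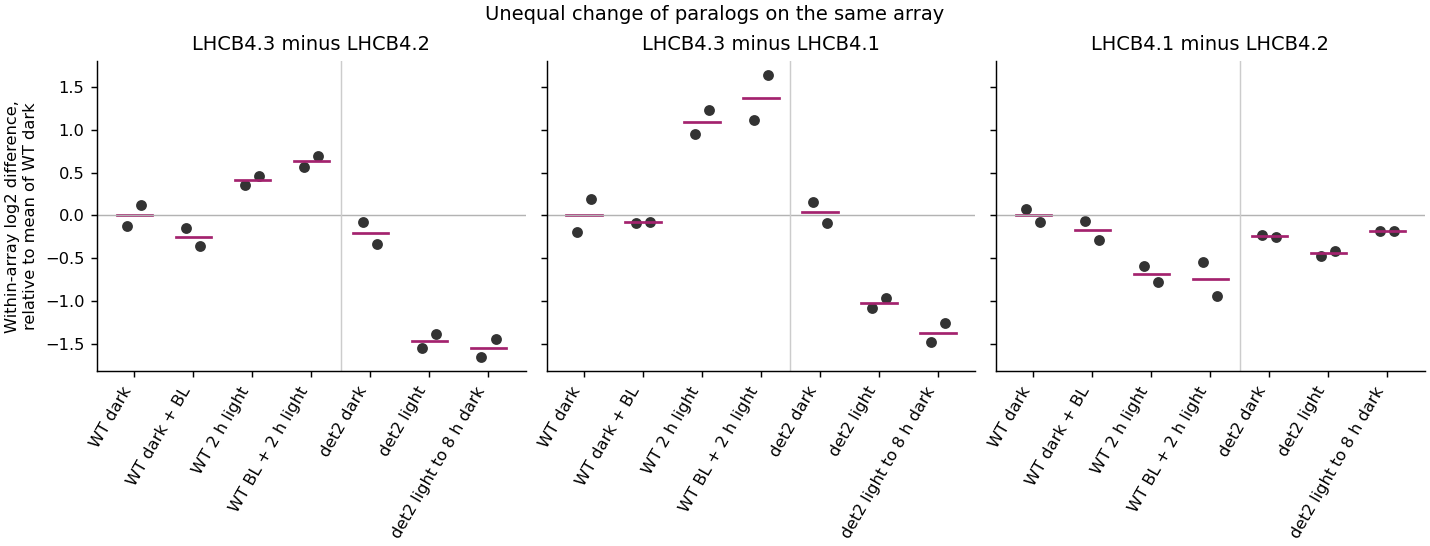
Within-array log2 difference between paralogs on each of the 14 arrays (points) and the group mean (line), set to 0 at the mean of dark-grown wild type. The differences of LHCB4.3 from its paralogs are above 0 in all 4 arrays of wild type in light and are -0.96 or below in all 4 arrays of light-raised det2.

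The BL comparisons ask what added brassinosteroid does to these genes before and after light. In the dark no CP29 gene passed, against 3.42% of all probe sets in either direction. LHCB4.3 stood at -0.29 ± 0.18 (adjusted p = 0.525, 95% interval -0.67 to 0.10), with both BL arrays below both untreated arrays. LHCB4.1 stood at -0.21 ± 0.16 (interval -0.55 to 0.13) and LHCB4.2 at -0.04 ± 0.13 (interval -0.31 to 0.23), with overlapping groups. None of the 3 had an unadjusted p under 0.05, the lowest being 0.13 for LHCB4.3.

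After the move to light all 3 means were higher with BL, but again 0 of 3 members passed in limma (lowest unadjusted p 0.064), against 4.25% of all probe sets. LHCB4.3 stood at 0.36 ± 0.18 with BL (adjusted p = 0.335, interval -0.02 to 0.74), with both BL arrays above both others. That separation is again a weak sign, and its share over all probe sets is not given here. LHCB4.2 stood at 0.14 ± 0.13 and LHCB4.1 at 0.08 ± 0.16. Differences between paralogs did not pass in either BL comparison. With LHCB4.2 as reference 2.39% and 3.68% of probe sets passed in the dark and in light, and with LHCB4.1 as reference 2.47% and 2.28%. The largest of the 6 was 0.28 ± 0.22, LHCB4.3 against LHCB4.1 in light (adjusted p = 0.723).

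The interaction asks whether BL changed the size of the light response. For LHCB4.3 the light response was larger with BL by 0.65 ± 0.25, with an unadjusted p of 0.0231 and an adjusted p of 1 in limma (95% interval 0.10 to 1.19). LHCB4.1 stood at 0.29 ± 0.22 and LHCB4.2 at 0.18 ± 0.18. In limma 0% of all probe sets passed the interaction, 662 of 17787 had an unadjusted p under 0.05, and the count was at most 2 under any other setting run. The interaction of LHCB4.3 therefore did not stand out after adjustment.

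**Figure D3:**
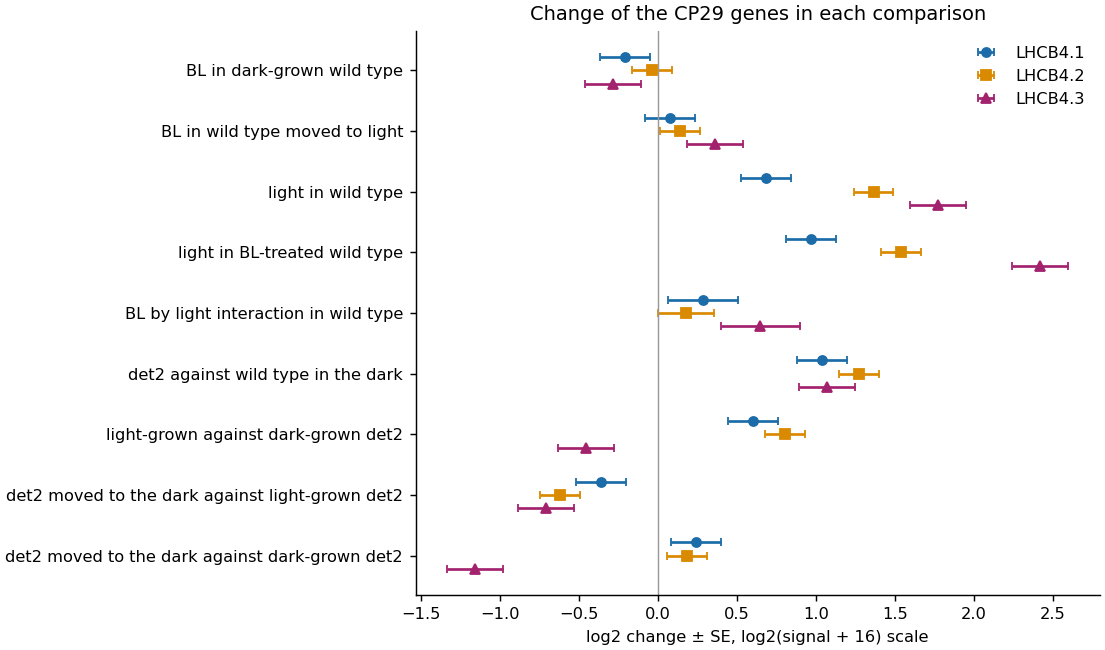
log2 change (points) with its standard error (bars) of LHCB4.1, LHCB4.2 and LHCB4.3 in the 9 comparisons, on the log2(signal + 16) scale. The genes lie on the same side of 0 in the wild-type and genotype comparisons and on opposite sides in the comparisons of light-raised with dark-grown det2, where LHCB4.3 alone lies below 0.

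In darkness det2 had more signal than wild type for every CP29 gene. LHCB4.2 was 2.42-fold higher (1.27 ± 0.13, adjusted p = 1.25e-05), LHCB4.3 was 2.1-fold higher (1.07 ± 0.18, adjusted p = 0.000576) and LHCB4.1 was 2.05-fold higher (1.04 ± 0.16, adjusted p = 0.000322). No array of one group overlapped the other, a separation whose share over all probe sets is not given here. By adjusted p 19.2% of all probe sets passed as higher. No difference between the 3 increases passed the test of differences, in which 79.9% of probe sets passed against LHCB4.2 and 66.7% against LHCB4.1. LHCB4.3 minus LHCB4.2 was -0.20 ± 0.19 (95% interval -0.60 to 0.20), LHCB4.3 minus LHCB4.1 was 0.04 ± 0.22 (interval -0.44 to 0.51) and LHCB4.1 minus LHCB4.2 was -0.24 ± 0.16 (interval -0.59 to 0.11). Under quantile normalization, which removes the different upper range of the det2 arrays, the increase of LHCB4.1 was 0.58 ± 0.19 (adjusted p = 0.033), while LHCB4.2 stood at 1.01 and LHCB4.3 at 1.09. With that scaling LHCB4.1 minus LHCB4.2 was -0.43 ± 0.19 (adjusted p = 0.0565). LHCB4.3 minus LHCB4.1 was then 0.51 ± 0.28 (adjusted p = 0.169) and LHCB4.3 minus LHCB4.2 was 0.07 ± 0.23 (adjusted p = 0.772). The sizes of these differences therefore depended on the scaling. The summed root markers were lower in dark-grown det2 (142.4 to 192.7) than in dark-grown wild type (377.9 to 794.6), and their part was not tested.

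Light-grown det2 separated the paralogs. Compared with dark-grown det2 LHCB4.2 rose 1.75-fold (0.81 ± 0.13, adjusted p = 0.000289) and LHCB4.1 rose 1.52-fold (0.60 ± 0.16, adjusted p = 0.00963). LHCB4.3 stood at -0.45 ± 0.18, with both light arrays below both dark arrays, and did not pass (adjusted p = 0.0616, 95% interval -0.84 to -0.07). The share of all probe sets separated without overlap is not given here. Of all probe sets 19.5% passed as higher and 17.7% as lower. The LHCB4.3 value passed under quantile normalization (-0.50, adjusted p = 0.037), median scaling (-0.48, adjusted p = 0.0465) and in det2 arrays alone (adjusted p = 0.0303). It was -0.26 without replicate 1 of dark-grown det2 (adjusted p = 0.378) and -0.65 without replicate 2 (adjusted p = 0.037). LHCB4.1 was lost without replicate 2 of dark-grown det2 (0.53, adjusted p = 0.0697) or replicate 2 of light-grown det2 (0.58, adjusted p = 0.0615).

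The differences of LHCB4.3 from both paralogs passed in this comparison. LHCB4.3 minus LHCB4.2 was -1.26 ± 0.19 (adjusted p = 6.96e-05), against 64.7% of all differences from LHCB4.2 passing, and LHCB4.3 minus LHCB4.1 was -1.05 ± 0.22 (adjusted p = 0.00184), against 48.9% for LHCB4.1 as reference. Both held with each array left out in turn, with adjusted p at most 0.0202. With the errors of both members combined, a test added after seeing the data, their unadjusted p was 6.55e-05 and 0.000694. LHCB4.1 minus LHCB4.2 was -0.21 ± 0.16 (adjusted p = 0.282).

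Whether the light contrast itself differed between det2 and wild type was tested in a contrast chosen after the values were seen. It sets light-grown against dark-grown det2 beside 2 h of light in wild type, so genotype and duration of light cannot be told apart. For LHCB4.3 the det2 contrast was lower by 2.23 on the log2 scale (difference -2.23 ± 0.25, adjusted p = 5.44e-05), with a range of -2.42 to -2.04 over the left-out arrays. LHCB4.2 had -0.56 ± 0.18 (adjusted p = 0.037), lost in 7 of 8 such fits, and LHCB4.1 had -0.08 ± 0.22 (adjusted p = 0.826). Of all probe sets 10.4% passed as lower in this contrast.

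After 8 h of darkness det2 seedlings raised in light had less LHCB4.2 and LHCB4.3 signal than light-grown det2, calls that did not survive leaving out an array, in a comparison where age differed too (14 against 7 days). LHCB4.3 was 1.63-fold lower (-0.71 ± 0.18, adjusted p = 0.0209) and LHCB4.2 was 1.54-fold lower (-0.62 ± 0.13, adjusted p = 0.0063), while LHCB4.1 stood at -0.36 ± 0.16 (adjusted p = 0.174). All 3 genes had no overlap between groups, a separation whose share over all probe sets is not given here. By adjusted p 6.4% of all probe sets passed as lower. Neither call held when any of the 4 arrays was left out. Adjusted p then lay between 0.0528 and 0.0613 for LHCB4.2 and between 0.0702 and 0.166 for LHCB4.3, with changes of -0.64 to -0.61 and -0.80 to -0.61. No difference between paralogs passed the test, in which 50.7% of probe sets passed against LHCB4.2 and 17.6% against LHCB4.1. LHCB4.3 minus LHCB4.2 was -0.08 ± 0.19, LHCB4.3 minus LHCB4.1 was -0.35 ± 0.22 and LHCB4.1 minus LHCB4.2 was 0.26 ± 0.16.

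Set against dark-grown det2, the seedlings moved to the dark had less LHCB4.3, by 2.23-fold (-1.16 ± 0.18, adjusted p = 0.000411). LHCB4.1 stood at 0.24 ± 0.16 (adjusted p = 0.277) and LHCB4.2 at 0.18 ± 0.13 (adjusted p = 0.297), and neither passed. Of all probe sets 16.2% passed as higher and 13% as lower. LHCB4.3 minus LHCB4.2 was -1.34 ± 0.19 (adjusted p = 0.000149) and LHCB4.3 minus LHCB4.1 was -1.40 ± 0.22 (adjusted p = 0.000655), with 26.8% and 24.5% of all such differences passing. Both held with each array left out. This comparison shares its arrays with the other det2 comparisons, so the 3 sets of det2 values are not independent of each other, and age differs here as well.

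Other nuclear genes of the photosystems gave the frame for these values. Besides CP29, 5 genes of the fixed antenna and photosystem list had a named probe set. They were PSAN and PSAE-1, subunit genes of photosystem I, PSBY and PSBW, small subunits of photosystem II, and PSB27, an assembly factor of photosystem II. All 5 rose with light in wild type, from 0.78 ± 0.15 (PSBW) through 1.19 ± 0.13 (PSAE-1), 1.20 ± 0.14 (PSB27) and 1.46 ± 0.12 (PSBY) to 1.84 ± 0.15 (PSAN), with a median of 1.20 against -0.12 over all probe sets. All 5 rose with light in BL-treated seedlings too (median 1.43), and all 5 were higher in dark-grown det2 than in dark-grown wild type (median 1.10). The shares of all probe sets passing as higher were 10.1% for light in wild type, 8.97% for light with BL and 19.2% for dark-grown det2. With BL 0 of 5 passed in limma, in the dark (adjusted p at least 0.423) or in light (adjusted p at least 0.725), and 0 of 5 had an unadjusted p under 0.05. The shares of all probe sets passing with BL, in either direction, were 3.42% in the dark and 4.25% in light.

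Between light-grown and dark-grown det2 all 5 rose, PSAN by 1.93 ± 0.15, PSBY by 1.35 ± 0.12, PSAE-1 by 0.91 ± 0.13, PSB27 by 0.89 ± 0.14 and PSBW by 0.74 ± 0.15. LHCB4.2 (0.81) lay within that range, LHCB4.1 (0.60) below it, and LHCB4.3 below 0. In this comparison 19.5% of all probe sets passed as higher. After the move to the dark 2 of 5 fell, PSBY by 0.97 (-0.97 ± 0.12) and PSB27 by 0.49 (-0.49 ± 0.14), against 6.4% of all probe sets. Against dark-grown det2, 3 of 5 were higher, PSAN by 1.48 ± 0.15, PSAE-1 by 0.64 ± 0.13 and PSBY by 0.38 ± 0.12, against 16.2% of all probe sets. LHCB4.3 was lower in that comparison.

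**Figure D4:**
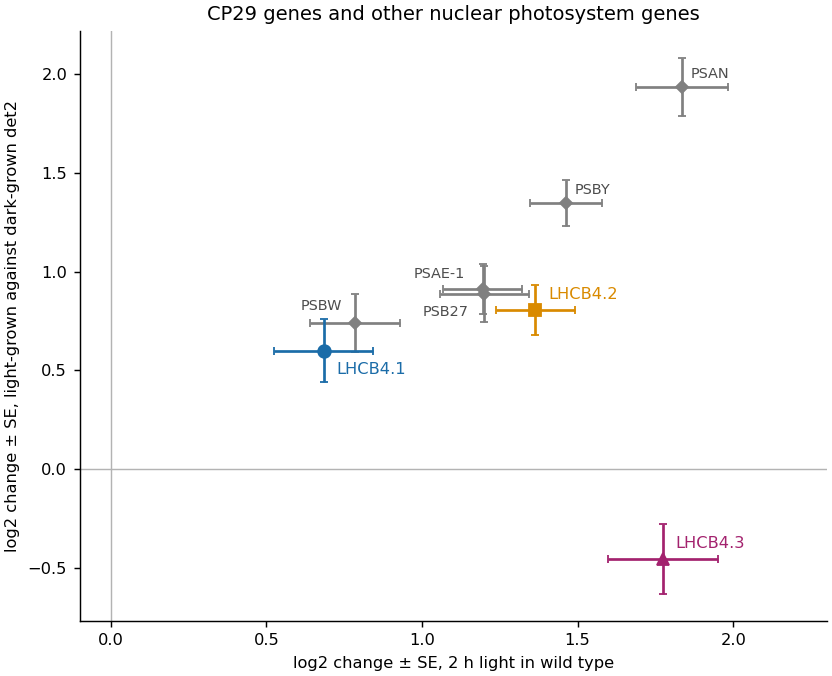
log2 change with 2 h of light in wild type (x axis) and between light-grown and dark-grown det2 (y axis), each with its standard error, for the CP29 genes (coloured) and 5 other nuclear photosystem genes (grey). LHCB4.3 lies at 1.77 and -0.45, while the other 7 genes lie above 0 on both axes.

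Of the partners and regulators of the antenna only HYH, a light-signalling bZIP factor gene, had a named probe set. It rose with light in wild type (2.56 ± 0.27, adjusted p = 2.34e-05) and in light-grown det2 (1.61 ± 0.27, adjusted p = 0.000537), and it did not pass between dark-grown det2 and wild type (0.48 ± 0.27, adjusted p = 0.182). Of 8 chlorophyll synthesis genes 3 rose with light in wild type and 1 fell, where 10.1% of all probe sets passed as higher and 9.76% as lower. CHLI2, a magnesium chelatase subunit gene, rose by 1.12 ± 0.28, HEME1, of uroporphyrinogen decarboxylase, by 1.05 ± 0.18 and CHLM, the methyltransferase gene, by 0.89 ± 0.15, while the protochlorophyllide reductase gene PORB fell (-1.30 ± 0.14). In light-grown against dark-grown det2 4 of 8 rose, CHLI2 (1.49 ± 0.28), HEME1 (1.31 ± 0.18), HEME2 (1.20 ± 0.22) and HEMB1 (0.49 ± 0.18), against 19.5% of all probe sets. Over both BL comparisons PORB was the 1 gene of the 8 that passed, and it was higher with BL in light (0.70 ± 0.14, adjusted p = 0.0145). Among the 17787 probe sets tested, 4.25% were called for BL after light and 3.42% for BL before it, counting both directions.

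The genes whose log2 signal followed each CP29 gene most closely over the 14 arrays were taken from 9778 named genes. For LHCB4.2 they were PSB27 (r = 0.989), AT3G46630 (r = 0.977), AT3G47070 (r = 0.977), AT1G74070 (r = 0.976) and PSBY (r = 0.974). For LHCB4.1 they were PSAE-1 (r = 0.975), the rubisco activase gene RCA (r = 0.969), PSB27 (r = 0.96), AT3G02690 (r = 0.959) and AT2G23390 (r = 0.959). PSB27 was thus among the nearest of both. LHCB4.3 had none of these. Its nearest were AT2G20560 (r = 0.957), Cpn60beta2 (r = 0.947), a plastid chaperonin subunit gene, AT5G51440 (r = 0.943), AT5G12110 (r = 0.942) and Mfl1 (r = 0.938), a mitochondrial carrier family gene of the plastid envelope.

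These 5 neighbours of LHCB4.3 stood higher after 2 h of light in wild type and did not pass between light-grown and dark-grown det2. Their changes with light in wild type were 5.12 ± 0.26 for AT5G51440, 4.55 ± 0.23 for AT5G12110, 3.70 ± 0.21 for AT2G20560, 2.50 ± 0.19 for Cpn60beta2 and 0.60 ± 0.17 for Mfl1, all past the test. In the det2 light contrast they stood at 0.05 ± 0.26, -0.55 ± 0.23, -0.41 ± 0.21, 0.17 ± 0.19 and -0.17 ± 0.17 in the same order, with adjusted p between 0.0779 and 0.901. They were picked for likeness over the same arrays, so these values describe the pattern and do not test it.

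**Figure D5:**
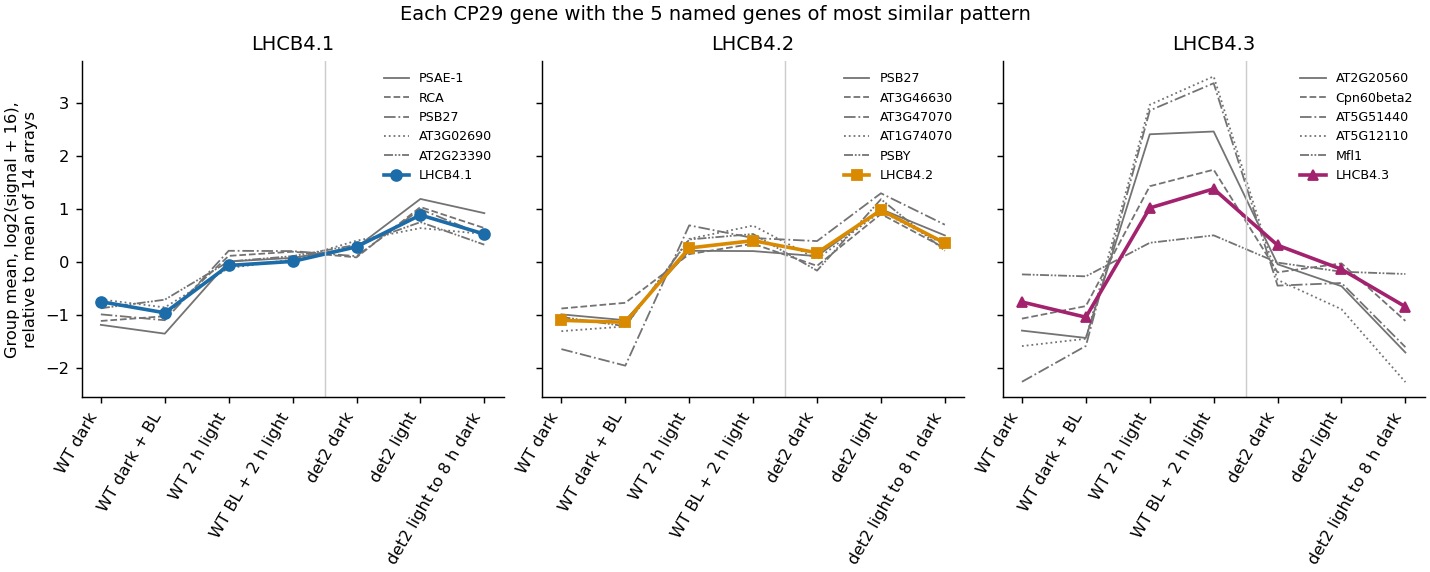
Group means of log2(signal + 16) relative to the mean of the 14 arrays, for each CP29 gene (coloured) and the 5 named genes of most similar pattern (grey). LHCB4.1, LHCB4.2 and their neighbours have their highest group mean in light-grown det2, and LHCB4.3 and its neighbours in BL-treated wild type moved to light.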

How the data were processed

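Total RNA of Arabidopsis seedlings was hybridised to 1-colour arrays. The authors deposited linear intensity values as 1 table of 14 arrays, and the submitters' processing notes name MAS5 and limma, without versions. Arrays already shared a trimmed mean, and rescaling to 500 (2% trimmed at each end) changed them by a share of 8.82e-05 or less. After 64 controls were removed, a mean signal of 50 or more was required, which kept 17787 probe sets and dropped 4959. Values were tested as log2(signal + 16), which understates changes of low genes, in 1 linear model of the 14 arrays (limma 3.58.1, R 4.3.3, variance trend, Benjamini-Hochberg within each comparison, threshold 0.05, no minimum fold). Figures used matplotlib 3.10.9.

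Groups came from the titles. Names came from the platform annotation, which gives 13513 probe sets 1 gene, 503 several and leaves 8794 unnamed here. A current RefSeq entry was found for 13436 of the first kind. For genes with several probe sets the brightest was used. Named genes are the members, the 5 genes closest in Pearson correlation to each, and passing members of fixed lists of antenna and photosystem, antenna regulator and chlorophyll synthesis genes. Of the marker lists, 0 seed storage markers had a named probe set. Members and lists were chosen with earlier results of these data known. Probe, promoter and protein sequences were not analysed here, and whether a probe set also detects a paralog was not tested. The number of arrays limits the precision. Alternatives were other pseudocounts, filters and scalings, no trend, a replicate block, 1 genotype alone and leaving out each array.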

Additional observations from a re-analysis of the deposited data

Results flagged for a closer look

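The light contrast of LHCB4.3 differed between det2 and wild type, with a difference of -2.23 on the log2 scale (adjusted p = 5.44e-05). LHCB4.3 rose with light in wild type (1.77 ± 0.18). Its lower value in light-grown than in dark-grown det2 did not pass (-0.45 ± 0.18, adjusted p = 0.0616). That det2 value was -0.26 without replicate 1 of dark-grown det2. LHCB4.2 differed in the same contrast by -0.56 (adjusted p = 0.037), though it rose in both genotypes. This LHCB4.2 call was lost without a filter (adjusted p = 0.0637) and without the trend (adjusted p = 0.0931). Its value ranged from -0.73 to -0.39 with single arrays left out. The contrast was chosen after the values were seen. Light lasted 2 h in wild type and the whole growth in det2, so genotype and duration cannot be told apart.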

How the results depend on the processing

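Settings other than leaving out arrays were compared with the values reported. For single members 255 of them stayed on the same side of the threshold, 3 were lost and 6 gained, and for pairs of members 270 stayed, 10 were lost and 2 gained, with 0 reversals of a called value. The cause of these changes was not tested. The excess of LHCB4.3 over LHCB4.2 with light in wild type was lost with a pseudocount of 64 (0.29), quantile normalization (0.25) and, at 0.41, without the trend, with the replicate block (adjusted p = 0.0524), in wild-type arrays alone, and with the errors of both members combined (unadjusted p = 0.0825), a setting added after seeing the data. In the 4 against 4 test it was 0.54 with quantile normalization (exact p = 0.0571). With the numbers taken as pairs by sign-flip the differences of 0.65, -0.63 and 1.27 missed the threshold, which 4 pairs cannot reach in an exact test. In wild-type arrays alone LHCB4.1 with light was 0.68 (adjusted p = 0.0515). In det2 arrays alone the calls gained were LHCB4.3 between light-grown and dark-grown det2 (-0.45), LHCB4.1 (-0.36) after the move to the dark, and LHCB4.1 (0.24) and LHCB4.2 (0.18) against dark-grown det2. LHCB4.1 minus LHCB4.2 also passed there (-0.21 with light and 0.26 after the move). LHCB4.3 in light-grown det2 was -0.50 with quantile normalization and -0.48 with median scaling. The difference between the light contrasts for LHCB4.2, at -0.56, was lost without a filter and without the trend.

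With single arrays left out, changes ranged from 0.44 to 0.92 (LHCB4.1, light in wild type), 0.53 to 0.67 (LHCB4.1, light-grown det2), -0.65 to -0.26 (LHCB4.3, light-grown det2), -0.64 to -0.61 and -0.80 to -0.61 (LHCB4.2 and LHCB4.3, det2 moved to the dark) and -0.73 to -0.39 (LHCB4.2, difference between light contrasts). The paralog differences ranged from 0.29 to 0.53 (LHCB4.3 minus LHCB4.2, light) and -0.77 to -0.38 (LHCB4.1 minus LHCB4.2, light with BL). A lone array left in a group is assumed to vary like the others.

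Deviations from group means correlated across probe sets at 0.226 to 0.429 between wild-type groups and -0.03 to 0.02 between det2 groups, a hint from the data that numbers are shared within wild type. With only 2 numbers per group and no label that ties them, the reported tests leave them unpaired. The replicate block gave 4015 calls against 3526 for light in wild type and in that fit lost, of all calls on members and pairs, the excess of LHCB4.3 over LHCB4.2 with light in wild type (adjusted p = 0.0524). Calls fell over 1.5 times in wild-type arrays alone, to 175 from 608 and 214 from 756 for BL in the dark and in light, to 2253 from 3526 and 1979 from 3087 for light, and rose to 4767 from 2202 in det2 arrays alone for the move to the dark. With 1 array left out they were as low as 184, 299, 1995, 790, 2955, 4376 and 2703 for BL in the dark, BL in light, light with BL, the 2 dark-move comparisons, light-grown det2 and the difference between light contrasts. Median scaling shifted the median of all probe sets by -0.11 for det2 against wild type. For that comparison, arrays of 1 genotype alone could not be fitted.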
